A study of Mus musculus with 6 samples.

Results

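The cell cycle, replication and mitosis genes described here were 40 genes, taken by symbol from a table of 39179 mouse genes. No cutoff on a measured value was used, but earlier results of these data were known when they were chosen. The 40 genes comprise 9 G1 cyclins, kinases and E2F1, 6 inhibitors of cyclin-dependent kinases (CDK), 11 replication genes and 14 mitosis genes. Their RNA was measured in cortical thymic epithelial cells (cTEC), the stromal cells of the thymic cortex that support early T-cell development. The subsets compared were *Cxcl12*DsRed- cTEC and *Cxcl12*DsRed+ cTEC (DsRed- and DsRed+ below), in 3 libraries each. Both came from untreated *Cxcl12*DsRed knock-in mice of 10 weeks on a C57BL/6 background, so the reporter allele was shared by both subsets and no wild type library was used. The knock-in makes the red fluorescent protein DsRed report where *Cxcl12*, a chemokine gene, is active. Cells were sorted as CD45-EpCAM1+UEA1-Ly51+, which leaves out leukocytes by CD45 and medullary epithelium by UEA1 binding, and were then divided by DsRed. The labels name 3 experiments, A, B and C, with 1 library of each subset in each. The paper's text describes the 3 libraries of a subset as biological replicates, whereas the legend to its RNA plots speaks of a technical triplicate of 1 experiment that stands for 3 separately sorted replicates, so the p-values below reflect how far these 6 libraries spread, and some of that spread may be technical. The sources used here do not give the number of mice behind a library.

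The cell cycle is driven by CDKs, which are active only when bound to a cyclin. In G1 the D-type cyclins with CDK4 or CDK6, and then E-type cyclins with CDK2, phosphorylate the retinoblastoma proteins and free E2F factors, which switch on replication genes, while CDK inhibitors hold the kinases back. Cyclin A, cyclin B with CDK1, the Aurora and Polo-like kinases and the spindle checkpoint then act around mitosis. Adult cTEC are known as slowly dividing cells, and the thymocytes that surround them divide much more.

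Depth was 34574900 to 44969195 counts in genes in DsRed- libraries and 38875590 to 51042679 in DsRed+ libraries. The DsRed transcript, which checks the sort, stood at 17.6 to 27.8 CPM (counts scaled to library size by TMM) in DsRed- cTEC and at 860 to 2059 CPM in DsRed+ cTEC. All 10 cTEC marker genes had a lower mean in DsRed- cTEC, and the 5 epithelial genes had at least 1 CPM in every library. Marker genes of other cell types were detected in both subsets, and whether they came from other cells or from the sorted cTEC was not tested. A list of 20 thymocyte genes summed to 154, 141 and 73.7 CPM in DsRed- libraries A, B and C, against 137, 442 and 53.7 CPM in DsRed+ libraries A, B and C. A list of 10 tuft cell genes summed to 504 to 2740 CPM in DsRed- cTEC and to 34.8 to 37.8 CPM in DsRed+ cTEC, whereas 10 endothelial genes summed to 52.0 to 102 CPM in DsRed- cTEC and to 671 to 5089 CPM in DsRed+ cTEC. In libraries made from many cells, fewer cells of a type and less RNA per cell cannot be told apart.

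None of the 40 genes passed the test between the subsets. Of 15576 genes tested with edgeR's quasi-likelihood test, 97 passed an adjusted p of 0.05, which is 0.623%, with 70 higher (0.449%) and 27 lower (0.173%) in DsRed- cTEC. Of the 40 genes, 38 had enough counts to be tested. *Cdkn2a* and *Bub1* did not. The smallest adjusted p among the 38 was 0.12 (edgeR), and 3 had an unadjusted p under 0.05, *Cdkn2b* with a higher level and *Ccnd3* and *Bub1b* with a lower level in DsRed- cTEC. An unadjusted p under 0.05 was reached by 11.8% of all genes tested. With edgeR's likelihood ratio test, a less strict test that called 5.65% of all genes (3.53% higher and 2.12% lower in DsRed- cTEC), 2 of the 38 passed, *Cdkn2b* higher and *Bub1b* lower. With the experiment as a replicate block in the quasi-likelihood test, none of the 38 and 0.469% of all genes passed.

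The 38 genes had a median log2 fold change of -0.24 for DsRed- over DsRed+ cTEC, where the median of all genes tested was 0.02. A total of 24 (63.2%) lay below 0, against 48.7% of all genes. In 8 of the 38, the libraries of the subsets did not overlap. This was 21.1%, near the 19% of all genes tested (9.73% higher and 9.32% lower in DsRed- cTEC). The 8 were *Cdkn2b*, higher in DsRed- cTEC, and *Ccnd3*, *Cdk4*, *Pcna*, *Tyms*, *Top2a*, *Ccna2* and *Bub1b*, lower in DsRed- cTEC. By role, the median log2 fold change was -0.41 for the 9 G1 genes, 0.71 for the 5 inhibitors tested, -0.12 for the 11 replication genes and -0.66 for the 13 mitosis genes tested. The inhibitor median was 0.23 without library B of DsRed- cTEC and -0.17 without experiment B. The mitosis median was -1.13 with the replicate block and -1.20 without library A of DsRed- cTEC, but -0.36 without library B of DsRed- cTEC, -0.40 without library B of DsRed+ cTEC and -0.05 without experiment B.

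**Figure D1:**
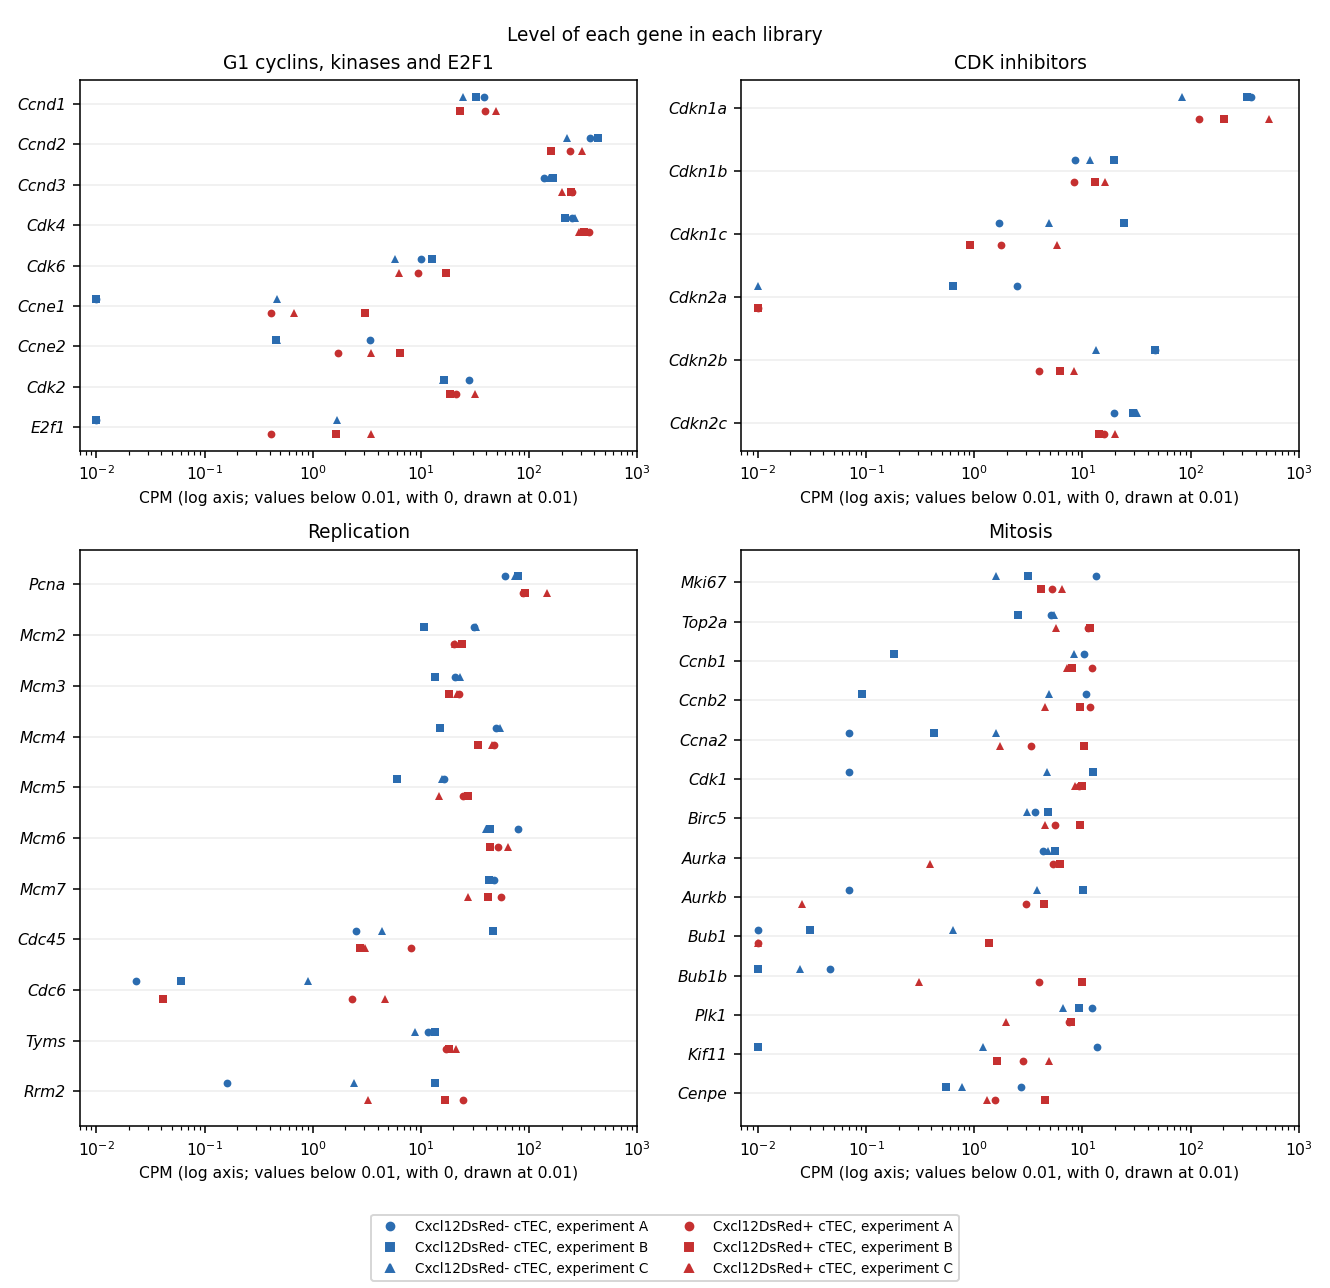
Level of the 40 genes in the 6 libraries, with CPM on a log axis and 1 panel for each role. Blue symbols, drawn above, are DsRed- cTEC and red symbols DsRed+ cTEC, with circles, squares and triangles for experiments A, B and C. *Ccnd2*, *Ccnd3* and *Cdk4* lie above 100 CPM in all libraries and *Cdkn1a* in all but 1, whereas every mitosis gene stays under 14 CPM, and the libraries of one subset scatter most among the mitosis genes.

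**Figure D2:**
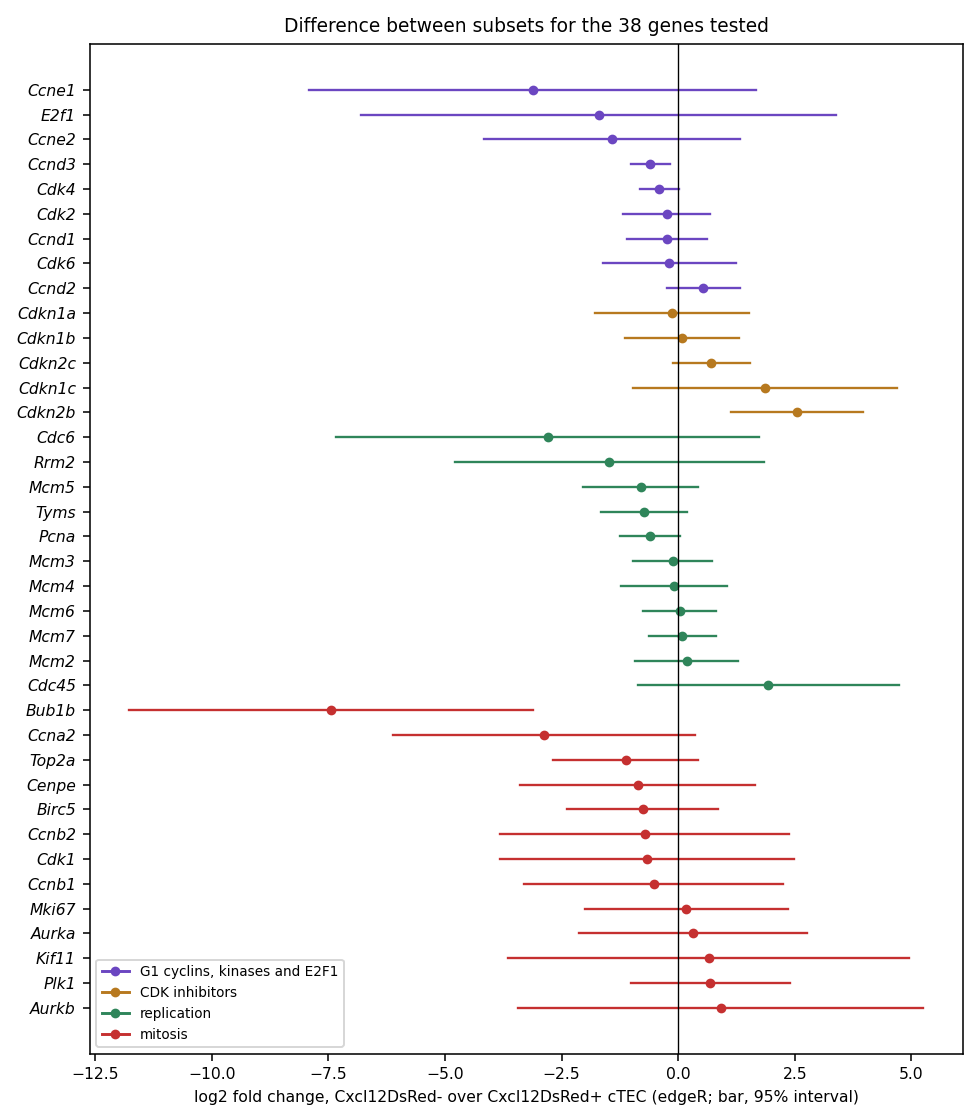
Log2 fold change of DsRed- over DsRed+ cTEC for the 38 genes tested, with the 95% interval from edgeR's quasi-likelihood fit, grouped by role. The intervals of *Ccnd3*, *Cdkn2b* and *Bub1b* leave out 0 before any adjustment for the number of genes tested, and those of most mitosis genes span several log2 units.

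Among the D-type cyclins, which start the passage through G1, *Ccnd3* and *Ccnd2* lay on opposite sides. *Ccnd3* (ENSMUSG00000034165, chr17:47505051-47599691, mm10) had 138, 166 and 154 CPM in DsRed- cTEC, against 250, 243 and 201 CPM in DsRed+ cTEC (experiments A, B and C in this order, here and below). All 3 DsRed- libraries were below all 3 DsRed+ libraries, with a log2 fold change of -0.60 (SE 0.18, adjusted p = 0.215, edgeR). *Ccnd2* had 367, 433 and 224 CPM in DsRed- cTEC, against 238, 160 and 309 CPM in DsRed+ cTEC. It was higher in DsRed- cTEC in experiments A and B and lower in C, and the libraries overlapped (log2 fold change 0.54, SE 0.33, adjusted p = 0.634, edgeR). *Ccnd1* had 24.6 to 38.2 CPM in DsRed- cTEC and 22.9 to 49.8 CPM in DsRed+ cTEC. Per kilobase of exon, the level of *Ccnd2* averaged 36.3 CPM in DsRed- cTEC and 25.0 CPM in DsRed+ cTEC, that of *Ccnd3* 17.4 and 26.4 CPM and that of *Ccnd1* 6.75 and 7.94 CPM in the same order of subsets. The mean of *Ccnd2* was thus above that of *Ccnd3* in DsRed- cTEC and about level with it in DsRed+ cTEC.

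*Cdk4*, the kinase partner of these cyclins, had the highest level per kilobase of the G1 genes, 74.7 CPM in DsRed- cTEC and 99.3 CPM in DsRed+ cTEC. Its libraries held 248, 216 and 265 CPM in DsRed- cTEC, against 360, 320 and 287 CPM in DsRed+ cTEC. The subsets did not overlap, although the highest DsRed- library came near the lowest DsRed+ library (log2 fold change -0.41, SE 0.18, adjusted p = 0.436, edgeR). *Cdk6*, the other kinase of this step, was far lower, at 5.71 to 12.8 CPM in DsRed- cTEC and 6.29 to 17.0 CPM in DsRed+ cTEC. *Cdk2*, which acts later in G1, had 16.0 to 27.6 CPM in DsRed- cTEC and 18.4 to 31.9 CPM in DsRed+ cTEC. Exons of *Ccnd3*, *Cdk4* and *Cdk2* overlap those of *Bysl*, *Tspan31* and *Pmel* on the opposite strand, and without strand in the counting the reads of such a pair cannot be told apart.

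The E-type cyclins and E2F1, which act at the entry to S phase, were low, at 6.47 CPM or less in every library. *Ccne1* had 0 counts in DsRed- libraries A and B and 0.467 CPM in C, against 0.416, 3.07 and 0.670 CPM in DsRed+ cTEC. *E2f1* likewise had 0 counts in DsRed- libraries A and B and 1.67 CPM in C, against 0.416, 1.65 and 3.43 CPM in DsRed+ cTEC. A count of 0 allows up to 0.0693 CPM in DsRed- library A and 0.0913 CPM in library B, taking 3 counts as the limit. For both genes the DsRed- library was the lower of the pair in each experiment, but *Ccne1* overlapped between library C of DsRed- cTEC and library A of DsRed+ cTEC, and so did *E2f1*. *Ccne2* had 3.42, 0.456 and 0.467 CPM in DsRed- cTEC, against 1.70, 6.47 and 3.43 CPM in DsRed+ cTEC. These 3 genes, named after their values were seen, had adjusted p-values of 0.654, 0.867 and 0.756 in the order *Ccne1*, *E2f1*, *Ccne2* (edgeR).

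Of the 5 CDK inhibitors tested, 4 had a positive log2 fold change, against 1 of the 9 G1 genes. The medians were 0.71 and -0.41 in this order, and the inhibitor median was -0.17 without experiment B. *Cdkn2b* encodes p15INK4b, which blocks CDK4 and CDK6 (ENSMUSG00000073802, chr4:89306299-89311039, mm10). It had 46.7, 47.0 and 13.2 CPM in DsRed- cTEC, against 3.95, 6.15 and 8.30 CPM in DsRed+ cTEC. All DsRed- libraries were above all DsRed+ libraries, and the gap was wide in experiments A and B and narrow in C. The mean was 35.6 ± 19.4 CPM in DsRed- cTEC and 6.13 ± 2.17 CPM in DsRed+ cTEC (SD, n = 3 each), a ratio of 5.81. Its log2 fold change was 2.54 (SE 0.60, 95% interval 1.12 to 3.96), with an adjusted p of 0.12 in edgeR's quasi-likelihood test and 0.00412 in edgeR's likelihood ratio test. The likelihood ratio call was lost without library A of DsRed- cTEC (adjusted p = 0.0696, edgeR), without library A (0.0655) or library B (0.0524) of DsRed+ cTEC, and without experiment A (0.325) or B (0.174). Marker genes of other cells were also higher in every DsRed- library than in any DsRed+ library, as were 9.73% of all genes tested. These markers were 10 of 10 tuft cell genes tested, 3 of 8 myeloid and B cell genes (*Lyz2*, *Itgam* and *Cd79b*) and 2 of 8 mTEC genes (*Cd80* and *Cldn4*). The count was 1 of 10 for fibroblast and pericyte genes (*Dcn*), 0 of 10 for endothelial genes and 0 of 18 for thymocyte genes. Among the epithelial genes it was 2 of 5 (*Epcam* and *Cdh1*). *Cd79b* had 33.7, 33.2 and 6.91 CPM in DsRed- cTEC, against 0.265, 1.79 and 1.52 CPM in DsRed+ cTEC, and *Cldn4* had 294, 281 and 28.7 CPM in DsRed- cTEC, against 1.97, 2.32 and 0.155 CPM in DsRed+ cTEC. Like *Cdkn2b*, both *Cd79b* and *Cldn4* were lowest of the DsRed- libraries in C, and the part of other cells in the level of *Cdkn2b* was not tested.

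Beside *Cdkn2b* lies *Cdkn2a*, which encodes p16INK4a and, from another reading frame, p19ARF, an activator of p53. It had 108, 21 and 0 counts in DsRed- cTEC and 0 counts in every DsRed+ library. The mean CPM of the DsRed- libraries put it at least 15.9-fold higher in DsRed- cTEC, with a floor of 3 counts in each DsRed+ library. This rests on libraries A and B alone, and most of the reads came from A. The gene did not pass the filter on low counts and has no test. *Cdkn2c*, which encodes p18INK4c, had 19.7, 29.3 and 32.05 CPM in DsRed- cTEC, against 15.7, 14.2 and 19.8 CPM in DsRed+ cTEC. It was higher in DsRed- cTEC in 3 of 3 experiments, with library A of DsRed- cTEC level with library C of DsRed+ cTEC (log2 fold change 0.71, SE 0.35, adjusted p = 0.519, edgeR).

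The CIP/KIP inhibitors, which bind cyclin-CDK complexes more widely, did not separate the subsets. *Cdkn1a* encodes p21, a target of p53 that also responds to stress, and had the highest level per kilobase of the inhibitors, 73.2 CPM in DsRed- cTEC and 80.3 CPM in DsRed+ cTEC. It had 364, 334 and 82.3 CPM in DsRed- cTEC, against 118, 204 and 533 CPM in DsRed+ cTEC. Experiment C thus ran opposite to A and B, and *Cdkn1a* stood at -0.13 (SE 0.70, adjusted p = 0.975, edgeR), a value that turned to 0.02 with the experiment as a replicate block. *Cdkn1c* encodes p57 and had 1.69, 24.1 and 4.92 CPM in DsRed- cTEC, against 1.78, 0.918 and 5.77 CPM in DsRed+ cTEC. Its log2 fold change of 1.86 (SE 1.19, adjusted p = 0.652, edgeR) was 0.23 without library B of DsRed- cTEC and -0.17 without experiment B. *Cdkn1b*, which encodes p27, had 8.57 to 19.6 CPM in DsRed- cTEC and 8.43 to 16.0 CPM in DsRed+ cTEC.

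Of the 11 replication genes, 9 to 10 reached 1 CPM in DsRed- libraries and 10 to 11 in DsRed+ libraries, and none passed the test. *Pcna*, the sliding clamp of DNA polymerases, had the highest level per kilobase of this role, 29.7 CPM in DsRed- cTEC and 45.2 CPM in DsRed+ cTEC. It had 60.1, 79.7 and 74.0 CPM in DsRed- cTEC, against 87.6, 91.0 and 147 CPM in DsRed+ cTEC. The subsets did not overlap, and library C of DsRed+ cTEC stood above the others (log2 fold change -0.61, SE 0.27, adjusted p = 0.445, edgeR). *Tyms*, thymidylate synthase, which makes dTMP for DNA, had 11.6, 13.6 and 8.78 CPM in DsRed- cTEC, against 17.2, 18.3 and 21.0 CPM in DsRed+ cTEC. It too did not overlap (log2 fold change -0.73, SE 0.39, adjusted p = 0.563, edgeR). *Rrm2*, the regulated subunit of ribonucleotide reductase, had 0.162, 13.4 and 2.39 CPM in DsRed- cTEC, against 24.3, 16.8 and 3.25 CPM in DsRed+ cTEC. The DsRed- library was the lower one in each experiment, but the libraries overlapped, and the spread within each subset was wide.

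MCM2 to MCM7 form the ring helicase that unwinds DNA at the fork. Their log2 fold changes lay between -0.81 for *Mcm5* and 0.18 for *Mcm2*, and 3 of the 6 were positive. *Mcm2* had 30.8, 10.6 and 32.1 CPM in DsRed- cTEC, against 20.4, 23.9 and 20.7 CPM in DsRed+ cTEC. *Mcm6* had 78.4, 43.8 and 39.6 CPM in DsRed- cTEC, against 51.8, 43.5 and 63.2 CPM in DsRed+ cTEC, and *Mcm7* had 47.0, 42.5 and 43.1 CPM in DsRed- cTEC, against 55.5, 41.6 and 27.4 CPM in DsRed+ cTEC. All 3 overlapped between subsets. *Mcm2* had a log2 fold change of 0.18 (95% interval -0.92 to 1.28), *Mcm6* of 0.03 (-0.75 to 0.81) and *Mcm7* of 0.09 (-0.63 to 0.81). Differences of 1.5-fold between the subsets in either direction lie within all 3 intervals, which reach beyond that size. The sign of *Mcm6* turned to -0.02 when libraries were scaled by their totals. *Mcm2*, *Mcm3*, *Mcm4* and *Mcm5* were each lowest in library B of DsRed- cTEC, where *Mcm4* had 15.0 CPM against 49.0 and 54.2 CPM in the other DsRed- libraries.

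The loading and activation factors of the helicase varied more than the helicase itself. *Cdc45*, a part of the active helicase, had 2.52, 46.4 and 4.40 CPM in DsRed- cTEC, against 8.16, 2.73 and 3.04 CPM in DsRed+ cTEC. Its log2 fold change of 1.93 (SE 1.18, adjusted p = 0.630, edgeR) came from library B of DsRed- cTEC and was -0.43 without it. *Cdc6*, which loads the ring on DNA before S phase, had 1, 2 and 37 counts in DsRed- cTEC, against 121, 2 and 180 counts in DsRed+ cTEC. It was close to 0 in both B libraries. *Cdc45* overlaps *Ufd1* on the opposite strand, and *Mcm7* overlaps *Cops6* and *Ap4m1*, with the same limit as above.

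The mitosis genes were the lowest and the most scattered. Summed over the 14 genes they came to 76.1, 49.3 and 47.6 CPM in DsRed- cTEC, against 82.7, 98.8 and 47.7 CPM in DsRed+ cTEC. Of the 14, 9, 7 and 11 reached 1 CPM in DsRed- libraries A, B and C, and 13, 14 and 10 in DsRed+ libraries A, B and C. The sums were alike in experiment C, close in A and far apart in B.

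*Bub1b* had the lowest adjusted p of this role. It encodes BUBR1, a kinase-like protein of the spindle checkpoint that holds back anaphase (ENSMUSG00000040084, chr2:118598211-118641591, mm10). It had 2, 0 and 1 counts in DsRed- cTEC, against 209, 476 and 12 counts in DsRed+ cTEC, where they equal 3.95, 9.93 and 0.309 CPM. All DsRed+ libraries were above all DsRed- libraries, although library C of DsRed+ cTEC held few reads. From 3 counts in all against 697, *Bub1b* was 194-fold lower in DsRed- cTEC, with a 95% counting interval of 66.2 to 945 that does not cover the spread between libraries. The adjusted p was 0.133 in edgeR's quasi-likelihood test and 0.00301 in edgeR's likelihood ratio test, and the call of the likelihood ratio test was lost without library B of DsRed+ cTEC (adjusted p = 0.0580) and without experiment A (0.0624) or B (0.118). That library also held the most thymocyte RNA, with a sum of 442 CPM and 19 of the 20 thymocyte genes at 1 CPM or more. The thymocyte sum was 137 CPM in library A of DsRed+ cTEC, which held 209 *Bub1b* counts. It was 154 and 141 CPM in libraries A and B of DsRed- cTEC, which held 2 and 0 *Bub1b* counts. The part of thymocyte RNA in *Bub1b* was not tested. *Bub1*, the partner of BUBR1 in the checkpoint, had 0, 1 and 26 counts in DsRed- cTEC, against 0, 66 and 0 counts in DsRed+ cTEC, too few to be tested.

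*Ccna2*, which encodes the cyclin A of S phase and G2, had 0.0693, 0.426 and 1.60 CPM in DsRed- cTEC, against 3.33, 10.3 and 1.73 CPM in DsRed+ cTEC. *Top2a*, the topoisomerase that untangles chromosomes, had 5.10, 2.53 and 5.51 CPM in DsRed- cTEC, against 11.2, 11.8 and 5.72 CPM in DsRed+ cTEC. Neither gene overlapped between subsets, and in both the C libraries nearly met. The log2 fold change of *Ccna2* was -2.87 (SE 1.36, adjusted p = 0.5, edgeR) and that of *Top2a* -1.13 (SE 0.65, adjusted p = 0.608, edgeR). *Ccna2* overlaps *Exosc9* on the opposite strand. *Birc5*, which encodes survivin of the chromosomal passenger complex, had 3.60, 4.78 and 3.07 CPM in DsRed- cTEC, against 5.52, 9.41 and 4.51 CPM in DsRed+ cTEC, lower in DsRed- cTEC in 3 of 3 experiments with an overlap. As with *Bub1b*, the highest value of *Ccna2*, *Top2a* and *Birc5* was that of library B of DsRed+ cTEC.

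**Figure D3:**
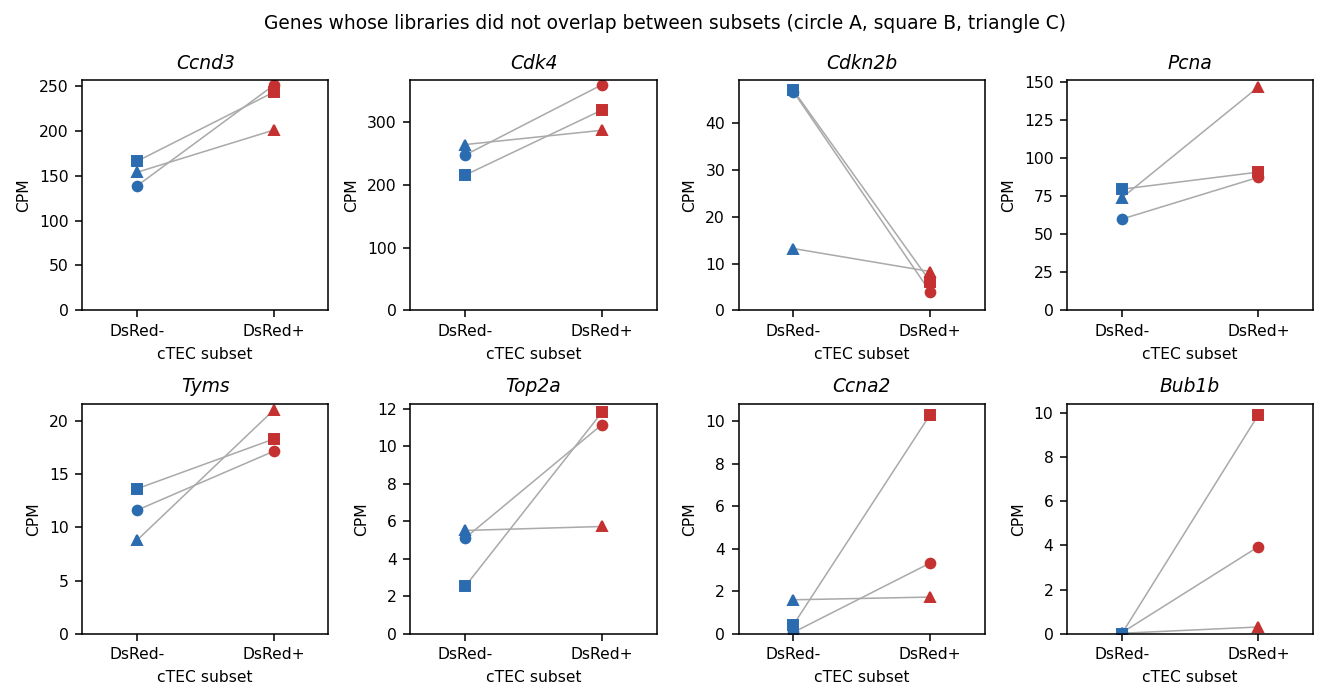
CPM of the 8 genes whose libraries did not overlap between subsets, with DsRed- cTEC (blue) left of DsRed+ cTEC (red) and lines joining libraries of 1 experiment (circle A, square B, triangle C). *Cdkn2b* is higher in DsRed- cTEC and the other 7 are lower, and in *Cdkn2b*, *Top2a*, *Ccna2* and *Bub1b* the experiment C line is the flattest.

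Cyclin B with CDK1 is the kinase that drives entry into mitosis, and in DsRed- libraries A and B its parts were not high together. *Ccnb2*, the mitosis gene highest per kilobase when both subsets are averaged, had 10.7, 0.0913 and 4.92 CPM in DsRed- cTEC, against 11.8, 9.57 and 4.54 CPM in DsRed+ cTEC (log2 fold change -0.72, SE 1.31, adjusted p = 0.923, edgeR). *Ccnb1* had 10.4, 0.183 and 8.41 CPM in DsRed- cTEC, against 12.2, 7.97 and 7.27 CPM in DsRed+ cTEC. Both B-type cyclins were thus nearly missing from library B of DsRed- cTEC. *Cdk1* had 0.0693, 12.6 and 4.75 CPM in DsRed- cTEC, against 9.22, 9.82 and 8.48 CPM in DsRed+ cTEC. It was nearly missing from library A, where the cyclins were high, and was highest of all libraries in B, where they were near 0. Library C of DsRed- cTEC held all 3 genes. *Cdk1* and *Ccnb1* were singled out after their values were seen, with adjusted p-values of 0.934 and 0.942 in this order (edgeR). A pseudogene, *Ccnb2-ps*, had 13, 0 and 58 counts in DsRed- cTEC, against 158, 25 and 60 counts in DsRed+ cTEC, and reads that fit both places were not counted.

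**Figure D4:**
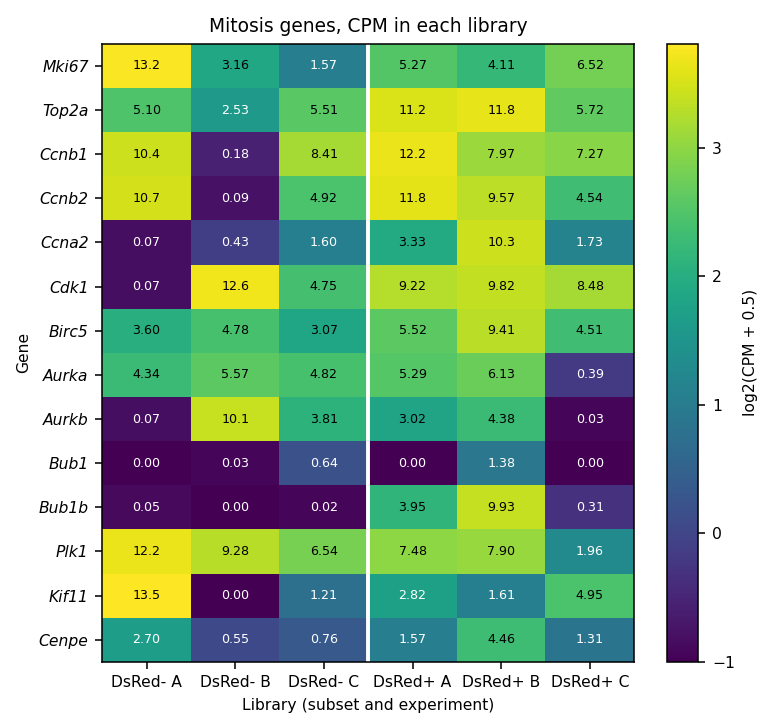
Mitosis genes in the 6 libraries, with DsRed- cTEC left of the white line and DsRed+ cTEC right of it. Colour gives log2(CPM + 0.5) and each cell prints the CPM. In DsRed- library A, *Ccnb1* and *Ccnb2* are bright with *Cdk1* dark, and in library B the reverse holds, whereas DsRed- library C and the 3 DsRed+ libraries show all 3 genes.

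*Aurkb* and *Kif11* were split between DsRed- libraries A and B as well. *Aurkb*, the Aurora kinase of the passenger complex, had 0.0693, 10.1 and 3.81 CPM in DsRed- cTEC, against 3.02, 4.38 and 0.0258 CPM in DsRed+ cTEC. *Kif11*, a motor that separates the spindle poles, had 13.5, 0 and 1.21 CPM in DsRed- cTEC, against 2.82, 1.61 and 4.95 CPM in DsRed+ cTEC. Library A of DsRed- cTEC held *Kif11* nearly without *Aurkb*, and so did library C of DsRed+ cTEC. Library B of DsRed- cTEC held *Aurkb* without *Kif11*. The log2 fold changes were 0.91 for *Aurkb* (SE 1.83, adjusted p = 0.935, edgeR) and 0.65 for *Kif11* (SE 1.81, adjusted p = 0.954, edgeR), and each reversed when 1 DsRed- library was left out, to -0.36 for *Aurkb* without B and to -2.36 for *Kif11* without A. *Mki67*, the proliferation marker Ki-67, had 13.2, 3.16 and 1.57 CPM in DsRed- cTEC, against 5.27, 4.11 and 6.52 CPM in DsRed+ cTEC. Its log2 fold change was 0.18 (SE 0.92, 95% interval -2.00 to 2.36, adjusted p = 0.975, edgeR), and it was -1.20 without library A of DsRed- cTEC.

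*Plk1*, the Polo-like kinase of mitotic entry and exit, was the mitosis gene higher in DsRed- cTEC in 3 of 3 experiments. It had 12.2, 9.28 and 6.54 CPM in DsRed- cTEC, against 7.48, 7.90 and 1.96 CPM in DsRed+ cTEC, with an overlap (log2 fold change 0.69, SE 0.72, adjusted p = 0.831, edgeR). *Aurka*, the Aurora kinase of the spindle poles, had 4.34, 5.57 and 4.82 CPM in DsRed- cTEC, against 5.29, 6.13 and 0.387 CPM in DsRed+ cTEC. A low value in library C of DsRed+ cTEC set its log2 fold change of 0.32 (SE 1.03, adjusted p = 0.960, edgeR), which was -0.26 without that library. *Cenpe*, a kinetochore motor, had 0.548 to 2.7 CPM in DsRed- cTEC and 1.31 to 4.46 CPM in DsRed+ cTEC.

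The scatter of the mitosis genes was near that of other genes at their level. Among genes of 1 to 10 CPM, the SD of log2(CPM + 0.5) within subsets had a median of 1.15 over the 17 cell cycle genes in this range and of 1.06 over all 4597 genes in it. From 10 to 100 CPM the medians were 0.489 over 16 cell cycle genes and 0.479 over 7611 genes. At 100 CPM and above they were 0.321 over 4 cell cycle genes and 0.291 over 1907 genes. The genes that passed the test between subsets had a median absolute log2 fold change of 6.41 and none below 1.29, and the differences of *Ccnd3*, *Cdk4*, *Pcna* and *Tyms* were smaller than any that passed.

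**Figure D5:**
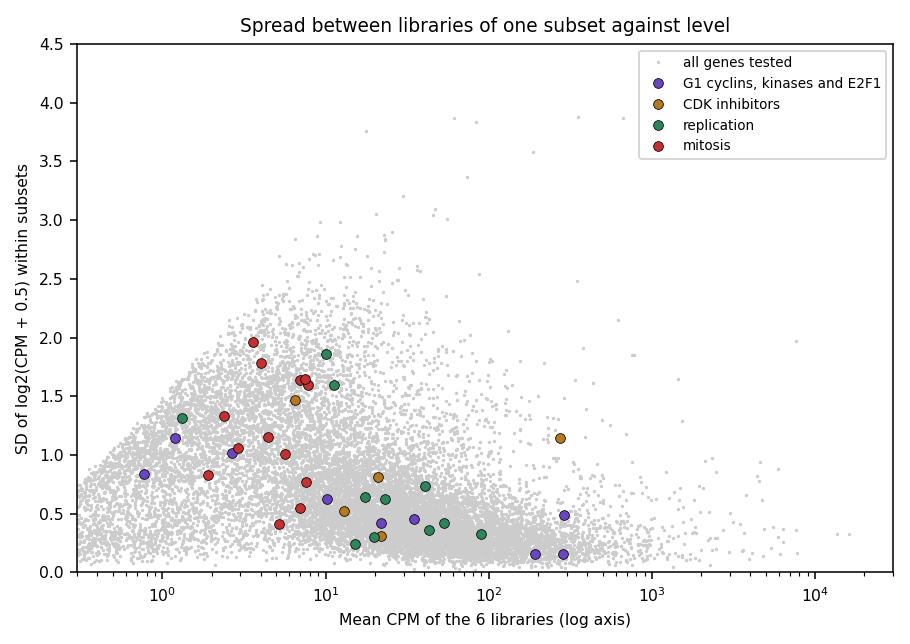
SD of log2(CPM + 0.5) within subsets against mean CPM of the 6 libraries on a log axis, with genes tested in grey and the 38 cell cycle genes coloured by role. Mitosis genes sit at low CPM and high SD within the grey cloud, and *Ccnd3* and *Cdk4* at high CPM and low SD.

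Mitosis genes are known to be switched on late in the cycle through CCAAT boxes, bound by NF-Y, and through the cell cycle homology region (CHR), bound by the DREAM and MuvB complexes, whereas replication genes are known for E2F sites. These letters were searched on both strands in the 250 bases before the start of each gene (RefSeq, GRCm38.p6), which were at hand for 33 of the 40 genes. The motifs were CCAAT for NF-Y, the letters TTTGAA for the CHR, and for E2F either GCGGGAA or the letters GCGCGAA. They do not overlap each other in the stretches printed here. CCAAT stood in 11 of 12 mitosis genes (91.7%) and in 8 of 10 replication genes (80.0%). The share was 37.5% of all 27025 genes that had such a RefSeq stretch, which were not limited to genes tested here. TTTGAA stood in 5 of 12 mitosis genes (41.7%), against 18.3% of those 27025 genes. The E2F letters stood in 4 of 10 replication genes (40%), against 5.74% of those 27025 genes. They also stood in 2 of 5 CDK inhibitors (40%), 1 of 6 G1 genes (16.7%) and 1 of 12 mitosis genes (8.33%). The 150 bases before the start are shown for *Ccnb2* and *Cdk1*, the partners that were split between libraries, and for *Bub1b* and *Cdkn2b*, the pair called by the likelihood ratio test. Capitals mark the motifs on the gene's strand, where ATTGG is CCAAT and TTCGCGC is GCGCGAA of the other strand.
Ccnb2 (chr9:70421555-70421704, minus strand): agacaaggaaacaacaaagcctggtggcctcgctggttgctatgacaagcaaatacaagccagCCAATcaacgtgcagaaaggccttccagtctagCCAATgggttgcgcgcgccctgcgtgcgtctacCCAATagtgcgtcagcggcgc
Cdk1 (chr10:69352913-69353062, minus strand): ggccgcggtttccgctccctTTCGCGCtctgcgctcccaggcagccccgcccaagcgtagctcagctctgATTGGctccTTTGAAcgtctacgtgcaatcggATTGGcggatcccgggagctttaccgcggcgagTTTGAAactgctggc
Bub1b (chr2:118598061-118598210, plus strand): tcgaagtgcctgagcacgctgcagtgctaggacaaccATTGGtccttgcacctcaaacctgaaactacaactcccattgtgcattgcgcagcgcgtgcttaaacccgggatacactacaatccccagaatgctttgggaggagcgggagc
Cdkn2b (chr4:89311033-89311182, minus strand): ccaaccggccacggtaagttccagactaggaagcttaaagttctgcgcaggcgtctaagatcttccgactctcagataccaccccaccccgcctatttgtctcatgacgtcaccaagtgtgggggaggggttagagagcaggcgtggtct

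In the 150 bases shown, *Ccnb2* held 3 CCAAT boxes, at 87, 54 and 21 bases before the start and 33 bases apart. *Cdk1* held 2, at 80 and 48 bases and 32 bases apart, with TTTGAA at 71 and 15 bases and E2F letters at 130 bases. *Bub1b* held 1 CCAAT box, at 113 bases, and none of these letters was in the stretch shown for *Cdkn2b*. Over the 250 bases searched, *Cdk1* held 3 CCAAT boxes, and *Ccnb2* and *Cdkn2b* held 1 TTTGAA each. The stretches shown for *Ccnb2* and *Cdk1* thus share CCAAT boxes at like spacing. Whether these motifs bear on the level of either gene was not tested. A match is a run of letters and not a measured site.

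Among the other genes of the pathway, none of the 118 tested passed edgeR's quasi-likelihood test, 5 had an unadjusted p under 0.05 where 11.8% of all genes did, and 1, *Mycn*, was called by edgeR's likelihood ratio test. The libraries of the subsets did not overlap in 5.88% of the replication genes, 5% of the mitosis genes, 8% of the pocket protein, E2F and DREAM genes and 26.3% of the p53 and growth arrest genes tested, where all genes gave 19%. Of 35 other replication genes, 34 were tested, with a median log2 fold change of -0.05. *Slbp*, the histone mRNA binding protein, had 51.6, 29.7 and 45.6 CPM in DsRed- cTEC, against 52.8, 49.9 and 117 CPM in DsRed+ cTEC, lower in DsRed- cTEC in 3 of 3 experiments (adjusted p = 0.545, edgeR). *Pold1*, the catalytic subunit of polymerase delta, had 49.7, 51.3 and 49.6 CPM in DsRed- cTEC, against 39.7, 21.3 and 39.1 CPM in DsRed+ cTEC, with no overlap (adjusted p = 0.541, edgeR).

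Of 43 other mitosis genes, 40 were tested. Their median log2 fold change was -0.40, and 30 of the 40 (75.0%) lay below 0, against 48.7% of all genes. The 43 genes summed to 610, 570 and 508 CPM in DsRed- cTEC, against 615, 703 and 585 CPM in DsRed+ cTEC. The sums were close in experiment A and furthest apart in B. How this median changes with libraries left out was not tested. *Mad2l1*, a spindle checkpoint protein that works with BUBR1, had 5.45, 17.1 and 17.2 CPM in DsRed- cTEC, against 29.4, 33.1 and 30.3 CPM in DsRed+ cTEC. The subsets did not overlap (log2 fold change -1.22, SE 0.49, adjusted p = 0.393, edgeR). *Racgap1*, which acts in cytokinesis, had 7.09, 15.6 and 9.89 CPM in DsRed- cTEC, against 16.6, 16.5 and 26.1 CPM in DsRed+ cTEC, again with no overlap (adjusted p = 0.572, edgeR). *Ttk*, a checkpoint kinase named after its values were seen, had 1, 0 and 0 counts in DsRed- cTEC, against 109, 183 and 0 counts in DsRed+ cTEC. Its subsets overlapped at 0 in experiment C, and it did not pass the filter and has no test.

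The 25 pocket protein, E2F and DREAM genes had a median log2 fold change of -0.31. *Mycn*, a MYC family factor that promotes growth and the cycle, had 0 counts in the DsRed- libraries, against 55, 182 and 208 counts in DsRed+ cTEC, which is at least 43.5-fold lower in DsRed- cTEC with a floor of 3 counts a library. Its adjusted p was 0.0968 in edgeR's quasi-likelihood test and 6.65e-05 in edgeR's likelihood ratio test. *E2f7*, a repressor of E2F targets, had 2, 0 and 46 counts in DsRed- cTEC, against 166, 56 and 621 counts in DsRed+ cTEC (adjusted p = 0.516, edgeR). Both were higher in every DsRed+ library than in any DsRed- library. The 19 genes of the p53 response and growth arrest had a median log2 fold change of 0.25, with 6 of 19 (31.6%) below 0, and of those that did not overlap 3 were higher (*Trp53inp1*, *Btg2* and *Gadd45a*) and 2 lower in DsRed- cTEC. *Trp53inp1*, a p53 target, had 78.8, 91.2 and 52.6 CPM in DsRed- cTEC, against 40.7, 41.4 and 35.4 CPM in DsRed+ cTEC (log2 fold change 0.92, SE 0.27, adjusted p = 0.203, edgeR). *Btg2*, an antiproliferative p53 target, had 1461, 1503 and 1064 CPM in DsRed- cTEC, against 756, 680 and 1018 CPM in DsRed+ cTEC (log2 fold change 0.71, SE 0.23, adjusted p = 0.271, edgeR). The 2 lower genes, named after their values were seen, were *Ccng1*, a cyclin G gene induced by p53, and *Plk3*, a stress-responsive Polo-like kinase. *Ccng1* had 97.3, 87.6 and 107 CPM in DsRed- cTEC, against 129, 135 and 124 CPM in DsRed+ cTEC. *Plk3* had 0, 5 and 57 counts in DsRed- cTEC, against 83, 148 and 423 counts in DsRed+ cTEC, and neither passed the test. *Btg2* is also an immediate early gene that responds to cell handling, whose part was not tested.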

How the data were processed

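RNA of 3 *Cxcl12*DsRed- and 3 *Cxcl12*DsRed+ cTEC libraries was made from poly(A) RNA with a SMARTer low input kit. According to the submitters' processing notes, the authors used Trimmomatic 0.36, STAR 2.7.3a on mm10 and HTSeq, and deposited raw counts per gene. Neither the annotation release nor the strand setting is given in the sources used here. Relative to the counts in genes, multiply aligned reads came to 5.61% to 9.07%, ambiguous reads to 1.21% to 1.38% and reads in no feature to 5.87% to 9.35%. These summary entries, the DsRed entry and 92 spike-in names entered neither library sizes nor tests. Symbols and coordinates came from GENCODE on GRCm38.

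The filter was filterByExpr (minimum count 10) and the scaling TMM, and genes were tested with edgeR 4.0.16 in R 4.3.3 (quasi-likelihood, prior count 0.125, Benjamini-Hochberg over 15576 genes at 0.05). The test was tested on simulated data. Alternatives were the likelihood ratio test, the experiment as a replicate block in both tests, RLE size factors, library totals, no filter, a filter at a mean of 1 CPM, voom from limma 3.58.1, DESeq2 1.42.0, and leaving out each library and experiment. The likelihood ratio test with libraries left out was added after the data were seen. Libraries of 1 experiment were taken as pairs from the labels. Their deviations from subset means correlated at 0.0296, 0.0892 and 0.0810 (A, B and C), and those of other library pairs at -0.111 to 0.00632. Floors are 3 counts a library, and floors and intervals of counts cover counting error only.

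The genes and lists were chosen with earlier results of these data known. Genes with an adjusted p under 0.05, the 3 with the smallest p in each role, the highest per kilobase of exon, and those against their role's median are named with full values, and of each other list the 2 with the smallest p. Plots were drawn with matplotlib 3.10.9.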

Additional observations from a re-analysis of the deposited data

How the results depend on the processing

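None of the 40 genes passed under the replicate block with the quasi-likelihood test, limma, other scalings, other filters or any library or experiment left out of that test. The likelihood ratio test, the same test with the replicate block, and DESeq2 each called 2, *Cdkn2b* and *Bub1b*. With libraries or experiments left out, the likelihood ratio test called 0 to 5. It called 0 without library B of *Cxcl12*DsRed+ cTEC, without experiment A and without experiment B, where 769, 693 and 814 of all genes passed. Without library C of *Cxcl12*DsRed- cTEC it called 5 of 39, and 1604 of 16541 genes in all. Without experiment C it called 5 of 38, and 1730 of 16005 genes in all. Both fits added *Ccne1*, *Cdkn2a* and *E2f1*. Of the other pathway genes, the likelihood ratio test called 1, *Mycn*, with the replicate block 2, *E2f7* and *Mycn*, and DESeq2 called 2, *Mycn* and *Trp53inp1*. Over all genes, 880 passed the likelihood ratio test, 1060 that test with the block, 1081 DESeq2 and 4 limma. In the quasi-likelihood test, 73 passed with the replicate block, 168 without a filter, and 0 to 139 with libraries or experiments left out.

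The median log2 fold change of the cell cycle genes was -0.39 with the replicate block in either test, -0.35 with limma, and -0.51 to -0.26 with libraries or experiments left out. The sign turned for *Cdkn1a* with the replicate block (0.024 and 0.023 in the quasi-likelihood and likelihood ratio tests), for *Mcm6* with the block (-0.022 in both tests), library totals (-0.022) and no filter (-0.011), and for *Mki67* and *Kif11* with the block (-0.36 and -1.98, and -0.36 and -2.05 by the likelihood ratio test) and limma (-0.28 and -1.89). With libraries or experiments left out, the ranges were -0.87 to 1.08 for *Cdkn1a*, -0.17 to 3.22 for *Cdkn1c*, -0.12 to 0.63 for *Mcm2*, -0.39 to 0.33 for *Mcm6*, -0.17 to 0.31 for *Mcm7*, -0.69 to 3.08 for *Cdc45*, -1.21 to 0.78 for *Mki67*, -0.26 to 0.77 for *Aurka*, -0.36 to 1.60 for *Aurkb* and -2.44 to 1.58 for *Kif11*. The cause was not tested.

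No gene with an absolute log2 fold change under 1.29 passed with 3 libraries a subset. Amplified reads are not independent molecules, so counting intervals leave out the error of capture and amplification.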
